A study of Gallus gallus with 9 samples.

Results

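The single-exon unidentified transcribed loci were 1186 of the 22082 loci counted in hen liver. They were chosen as the loci to which no gene identifier was assigned, which consisted of a single exon, and which had a level above 1 CPM (counts scaled to the size of the library) in 3 or more of the 9 libraries. Before the CPM minimum there were 3628 such loci, and 2442 stayed below it. The 1186 loci made up 9.62% of the 12324 loci that passed the CPM minimum and were tested. The other tested loci were 797 spliced unidentified loci, with more than a single exon, and 10341 previously identified loci. Of the 1186 loci, 1155 had no strand and 1146 held a single transcript model.

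A transcript assembler chains overlapping reads into models, and reads across a splice junction tie exons together and reveal the strand. A run of reads without such a junction becomes a single-exon model. In general such models can belong to noncoding RNAs, to gene ends that reach past the annotated end, to introns of precursor RNA or to sequence copied elsewhere in the genome. Which of these the loci were was not tested, and their position, composition, level and variation between hens are described here.

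The libraries came from the liver of Isa Brown laying hens, 55 weeks old, with 3 hens in each of 3 groups. All hens were reared in floor pens, and the eggs had been assigned to the groups at random. In the albumen-deprived group 3 ml of albumen was taken from the egg after 1 day of incubation and replaced by saline, and the sham-manipulated group underwent the procedure without removal of albumen or injection of saline. The non-manipulated group, named control in the labels, received no treatment. The comparisons ask whether the treatment of the egg left a difference in the adult liver. Against sham-manipulated hens, the removal of albumen and the injection of saline cannot be told apart. Against non-manipulated hens, the manipulation of the egg is included as well. Every hen was sequenced once. The P-values set a group difference against the spread between hens within groups, pooled over the 3 groups and in part over loci. That spread also holds differences between libraries.

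Library totals ran from 13720872 to 21747636 counts, with a median of 16278779, so that 1 CPM stood for 13.7 to 21.7 counts. The 14 hepatocyte markers found in the table all passed the CPM minimum and summed to between 230793 and 283760 CPM, whereas the 8 erythrocyte markers summed to at most 2.52 CPM and HBZ and HBAA were at 0 counts. The single-exon unidentified loci held between 0.631% and 0.968% of the counts of a library. The mean share was 0.711% ± 0.072 in the non-manipulated, 0.727% ± 0.035 in the sham-manipulated and 0.797% ± 0.150 in the albumen-deprived group (SD, n = 3), and the 3 groups overlapped. In liver RNA of whole tissue, fewer cells of a type and less RNA per cell cannot be told apart.

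The loci were short and weakly covered. Their median length was 966 bases, with quartiles of 465 and 1625.5 bases, and 96 loci were shorter than 200 bases while 25 were longer than 5000 bases. Spliced identified loci had a median of 3677 bases over their exons, and the loci below the CPM minimum one of 433 bases. Spliced unidentified loci were also short, with a median of 879 bases. The median GC content was 47.8%, with quartiles of 41.4% and 58.9%, against 46.3% in spliced identified and 56.0% in spliced unidentified loci. The median level was 1.84 CPM, against 3.88 CPM in spliced unidentified and 17.0 CPM in spliced identified loci. Per kilobase the gap to spliced identified loci was smaller, with a median of 1.79 CPM per kb against 4.36. The gap to spliced unidentified loci, at 4.06 CPM per kb, was not. The spread between hens was wider than for other loci, with a median biological coefficient of variation of 0.298 in the loci, 0.250 in spliced unidentified loci and 0.185 in spliced identified loci.

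The longest locus was XLOC_012187, of 12505 bases on chromosome 3 (7569421 to 7581925, Galgal4), which lay 3262 bases before the start of STON1, an adaptor of endocytosis. XLOC_012187 had 42.2, 25.7 and 32.9 CPM in the non-manipulated, 31.9, 33.2 and 29.1 in the sham-manipulated and 34.2, 42.7 and 39.96 in the albumen-deprived hens. Each albumen-deprived hen was above each sham-manipulated hen, with a log2-fold change of 0.36 ± 0.17 (edgeR adjusted p 0.733), and the non-manipulated hens overlapped both groups. The shortest was XLOC_021961, of 55 bases on chromosome Z. The highest GC content, 83.5%, was found in XLOC_017715, of 85 bases on chromosome 8 and 7811 bases before the start of JAK1, a kinase of cytokine receptors. The lowest, 29.3%, was that of XLOC_018388, of 222 bases on a scaffold.

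**Figure D1:**
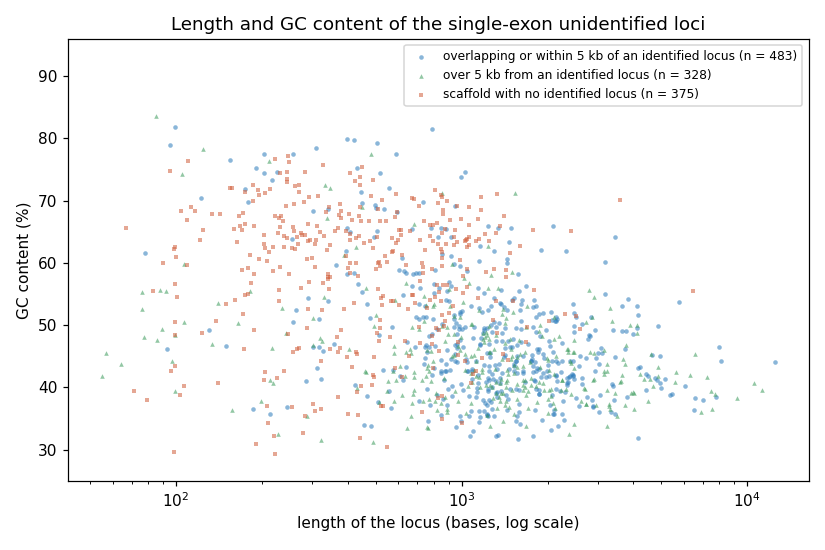
Length in bases (log scale) against GC content in percent, 1 point per locus for all 1186 loci, with colour and marker for 3 position classes. The 375 loci on scaffolds without an identified locus gather at short length and high GC content (medians 434 bases and 60.7%), whereas the 483 loci overlapping or within 5 kb of an identified locus have medians of 1276 bases and 45.6%.

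The sequence on which a locus lay separated the loci into different kinds. Of the 1186 loci, 408 (34.4%) lay on scaffolds outside the assembled chromosomes, against 4.16% of the identified loci tested. For 375 of them the scaffold held no identified locus at all. These 375 loci had a median length of 434 bases, a median GC content of 60.7% and a median level of 4.89 CPM per kb, against 1276 bases, 45.6% and 1.23 CPM per kb for the loci that overlapped or lay within 5 kb of an identified locus. Chromosome 1 held 142 loci and chromosome Z held 52, whereas none was found on chromosome W, where 5 identified loci were tested.

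Of the 811 loci on a sequence with an identified locus, 483 (59.6%) overlapped one or lay within 5 kb of it, which is 40.7% of all 1186 loci (95% Wilson interval 38.0% to 43.5%). Wholly inside the span of an identified locus were 74 loci (6.24%), and 0 overlapped a span in part. Within 1 kb lay 145 loci (12.2%), at 1 to 5 kb 264 (22.3%), at 5 to 50 kb 236 (19.9%) and beyond 50 kb 92 (7.76%). The median distance over the 811 loci was 3351 bases and the largest 1085690 bases. The spliced unidentified loci had a similar share overlapping or within 5 kb, 41.3%, but 0.502% of them lay wholly inside a span and 20.1% within 1 kb. The files give the start and end of a locus but not its exons, so that an intron and an exon of the host cannot be told apart for the loci inside a span.

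**Figure D2:**
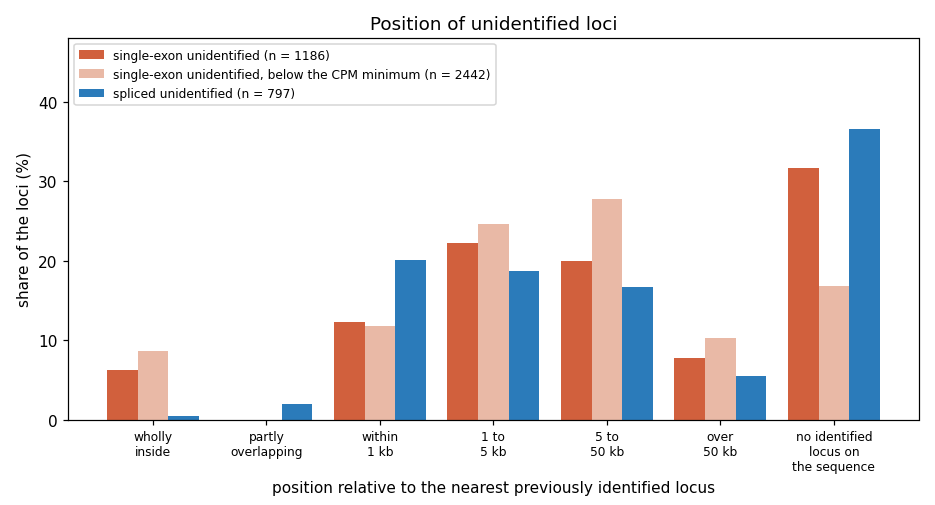
Share of loci in percent by position relative to the nearest previously identified locus, for the 1186 single-exon unidentified loci, the 2442 below the CPM minimum and the 797 spliced unidentified loci, with 1 bar each. Single-exon loci wholly inside a span make up 6.24% and 8.68% of their kinds against 0.502% of spliced unidentified loci, and sequences without an identified locus hold 31.6%, 16.9% and 36.5%.

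The 74 loci inside a span had 57 different hosts, with a median of 9 exons and a median span of 26256 bases, against 16148 bases over all identified loci tested. Their median level per kilobase was 25% of that of the host. The 3 with the highest counts lay in OSGIN1, an inhibitor of growth under oxidative stress, in B3GALT5, a galactosyltransferase, and in the locus of gga-mir-122-2, the precursor of a liver microRNA. XLOC_003756, inside OSGIN1, had 115, 331 and 1015 counts in the non-manipulated, 153, 163 and 89 in the sham-manipulated and 71, 917 and 152 in the albumen-deprived hens. A single hen of the non-manipulated and a single hen of the albumen-deprived group were high, and OSGIN1 itself was highest in the same 2 hens, at 515 and 413 CPM against 87.9 to 252 CPM in the others (Spearman rho 0.82 over 9 hens).

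Within 5 kb of an identified locus but outside its span, 211 loci lay after its end and 198 before its start, by the strand of the identified locus. Those after the end had a median GC content of 43.1% and a median level per kilobase of 60.9% of that of the gene. Those before the start had 49.6% GC and 26.5% of the level. The 483 loci overlapping or within 5 kb belonged to 411 identified loci, of which 61 had more than a single such locus and FMR1, an RNA-binding protein of translation, had the most, with 3.

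The level of a locus followed that of its nearest identified locus more closely the nearer it lay. The median Spearman rho of log2 CPM over the 9 hens was 0.47 for 73 loci inside a span, 0.39 for 142 within 1 kb, 0.28 for 232 at 1 to 5 kb, 0.25 for 184 at 5 to 50 kb and 0.08 for 54 beyond 50 kb. After the end of a gene the median was 0.39 and before the start 0.27. These are descriptions over pairs that share the 9 libraries and in part a gene. The log2-fold changes of the 447 loci overlapping or within 5 kb with a tested neighbour correlated with those of the neighbour at r = 0.35 in albumen-deprived against non-manipulated hens, 0.34 against sham-manipulated hens and 0.32 in the sham-manipulated against the non-manipulated group. The correlation did not fall off evenly with distance, with 0.01, 0.18 and 0.26 at 5 to 50 kb and 0.33, 0.44 and 0.41 beyond 50 kb.

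Among the loci with the highest level in each position class was XLOC_013040, of 4945 bases on chromosome 3 (109416392 to 109421336), 988 bases after the end of CYP39A1, an oxysterol hydroxylase of bile acid synthesis, with which it varied between hens (rho 0.97). XLOC_013040 had 41.7, 35.0 and 52.0 CPM in the non-manipulated, 44.9, 30.9 and 40.4 in the sham-manipulated and 46.4, 60.9 and 52.6 in the albumen-deprived hens. CYP39A1 had 89.3, 81.1 and 106 CPM, 92.0, 68.0 and 80.6 CPM, and 108, 135 and 120 CPM in the same order. Both were higher in each albumen-deprived than in each sham-manipulated hen, with a log2-fold change of 0.54 ± 0.14 (SE) for XLOC_013040 and 0.66 ± 0.12 for CYP39A1, and edgeR's adjusted p was 0.561 and 0.418. Chosen only after its values were seen, the weakly covered XLOC_002504 lay 105 bases after the end of IGF-I, the insulin-like growth factor (rho 0.95, mean 0.769 CPM). Such likeness was rare. Of 142 loci within 1 kb with a tested neighbour, 5 had a rho above 0.9 and 32 had a rho below 0.

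Single-exon loci also lay close to each other. Of the 1186, 397 (33.5%) had another within 5 kb, in 168 runs, the longest of which held 5 loci on chromosome Z between 17088773 and 17105691. Next neighbours among the loci with a gap of up to 5 kb varied together between hens, with a median rho of 0.68 over 229 pairs, against 0.37 over 59 pairs with a gap of 5 to 50 kb and 0.08 over 503 pairs further apart on the same sequence. Of the 1186 loci, 88 overlapped the span of a spliced unidentified locus.

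The counts were concentrated on a few loci. The 10 with the highest mean CPM took 40.6% of all counts on the loci, 93 loci were above 10 CPM on average and 629 (53.0%) were below 2 CPM. The highest was XLOC_013393, of 11313 bases on the plus strand of chromosome 4 (44049167 to 44060479), with 17.6% of the counts. It lay 29452 bases before the start of MTHFD2L, a mitochondrial enzyme of folate metabolism that was itself at 0.443 CPM on average and below the CPM minimum. XLOC_013393 had 1325 ± 194 CPM in the non-manipulated, 1239 ± 93.3 in the sham-manipulated and 1390 ± 115 in the albumen-deprived group (SD, n = 3), which overlapped.

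Of the other highly covered loci, XLOC_014299, 2973 bases after the end of PRPS1, an enzyme that makes the ribose phosphate of nucleotides, ranged from 35.0 to 248 CPM, and its level per kilobase was 1858% of that of PRPS1. XLOC_018752, XLOC_019635, XLOC_019922 and XLOC_018420 lay on scaffolds without an identified locus and had means of 125, 125, 123 and 112 CPM. XLOC_005635, of 5637 bases on the minus strand of chromosome 15, lay 112053 bases from its nearest identified locus and ranged from 63.2 to 173 CPM. The lowest edgeR adjusted p among them in any comparison was 0.681, for XLOC_018420. Beyond 50 kb from an identified locus, XLOC_012997 on chromosome 3, 322849 bases from TRIB2, was at 81.2 CPM and XLOC_002441 on chromosome 1 at 52.0 CPM on average. XLOC_002441 had 105, 58.8 and 54.3 CPM in the non-manipulated, 46.2, 27.7 and 46.6 in the sham-manipulated and 45.3, 43.5 and 40.6 in the albumen-deprived hens, with both manipulated groups below the non-manipulated one, and its log2-fold change in sham-manipulated against non-manipulated hens was -0.97 ± 0.25 (adjusted p 0.906).

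The remaining highly covered loci varied together. XLOC_002611 (515 CPM on average), XLOC_019674 (313 CPM) and XLOC_017700 (162 CPM) followed each other in every hen, and a search for loci with a Pearson r above 0.95 with XLOC_002611 over the 9 hens, made after these values were seen, gave 11 loci. All 11 were of a single exon. The set held 8 of the unidentified loci, the others being XLOC_020592, XLOC_015570, XLOC_021961, XLOC_002686 and XLOC_004653, and 3 identified loci for which the files give an identifier but no name, ENSGALG00000026592, ENSGALG00000029059 and ENSGALG00000028371. They lay on chromosomes 1, 5, 8, 13 and Z and on scaffolds, with lengths from 51 to 997 bases, and the next locus by r was AMN at 0.93.

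XLOC_002611, with a GC content of 73.8%, lay on chromosome 1 (100377672 to 100378668), 3967 bases before the start of ENSGALG00000026592. It had 348, 339 and 472 CPM in the non-manipulated, 430, 507 and 501 in the sham-manipulated and 489, 1145 and 409 in the albumen-deprived hens. The second albumen-deprived hen stood apart, with 2.62 times the mean of the others, and the same hen was the highest for each of the 11 loci, by 2.59 to 3.49 times. That shared peak follows from the choice of the set, as its loci were taken for their likeness to XLOC_002611, which peaked in this hen. The ratio to XLOC_002611 changed little between hens for some loci of the set. XLOC_019674 was at 57.8% to 63.1% of the counts of XLOC_002611 and XLOC_017700 at 27.2% to 33.3%. For others it changed more, with 1.23% to 1.90% for XLOC_002686 and 2.41% to 3.41% for XLOC_004653. In that hen the 8 unidentified loci took 26.8% of the counts on all single-exon unidentified loci, against 10.1% to 16.7% in the others. Without these 8 loci its share of library counts was 0.708% in place of 0.968%. That hen still had the highest share, as the hens ranged from 0.557% to 0.708% without these loci. The log2-fold change of XLOC_002611 was 0.78 ± 0.34 against non-manipulated and 0.54 ± 0.34 against sham-manipulated hens (adjusted p 0.9999 and 0.785), and without that hen it was 0.22 and -0.01.

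**Figure D3:**
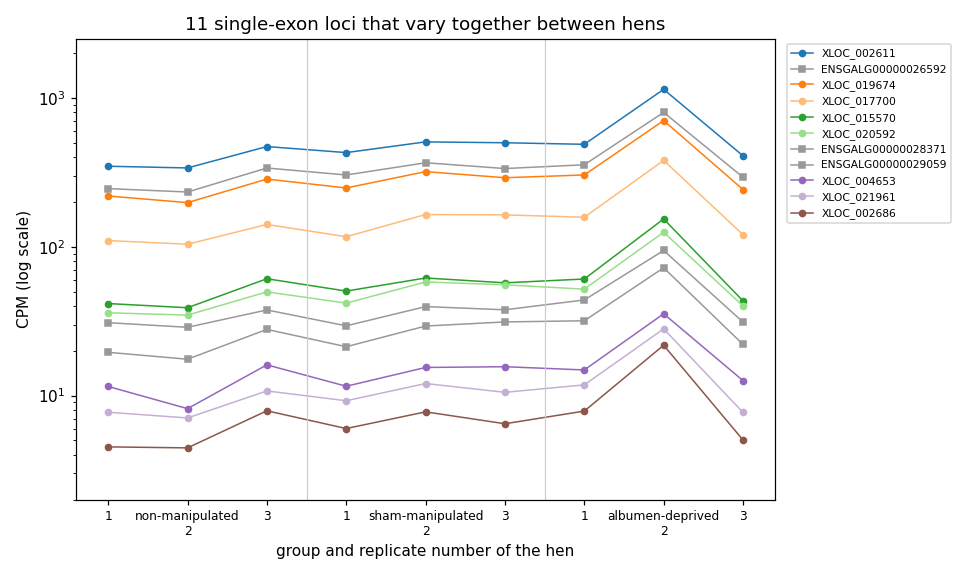
CPM (log scale) of 11 single-exon loci in each of the 9 hens, 1 line per locus, with coloured circles for the 8 unidentified and grey squares for the 3 identified loci. The lines run nearly in parallel and each has its highest point in the second albumen-deprived hen, at 1145 CPM for XLOC_002611 against 339 to 507 CPM in the others. The loci were chosen for their likeness to XLOC_002611, from which this shared course follows.

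Of the 1186 loci, 550 (46.4%) exceeded 1 CPM in all 9 libraries and 137 in exactly 3, and 39 had a count of 0 in some library. Just inside the minimum, by the third highest library, were XLOC_020362, 1211 bases from H3-IX, a histone gene, and XLOC_010077 on chromosome 23, both at 1.001 CPM, and just outside it XLOC_016388 and XLOC_018275, both at 0.995 CPM. No library outside a single group was above 1 CPM for 3 loci. They were XLOC_008691 and XLOC_013014, carried by the albumen-deprived libraries, and XLOC_021927, carried by the non-manipulated ones. Other loci also needed the albumen-deprived hens. XLOC_008687 and XLOC_008688 were above 1 CPM in these hens and otherwise only in non-manipulated replicate 1. XLOC_016413 exceeded 1 CPM only in that replicate and albumen-deprived replicates 2 and 3, and XLOC_018977 only in the latter and non-manipulated replicate 3. XLOC_021510 exceeded it only in non-manipulated replicate 2 and albumen-deprived replicates 1 and 3. Outside the albumen-deprived hens, XLOC_003320 exceeded it only in non-manipulated replicate 1 and XLOC_019342 only in non-manipulated replicates 1 and 2. A high level in the albumen-deprived group was thus part of how these loci were chosen.

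The 3 groups differed in few of the loci. At the cut-off of P under 0.001 and a log2-fold change above 1 in either direction, 1 locus passed in albumen-deprived against non-manipulated hens, where 0.0487% of all 12324 tested loci passed. In albumen-deprived against sham-manipulated hens 4 passed, against a background of 0.105%, and in the sham-manipulated against the non-manipulated group 1 passed, against 0.0649%. After adjustment over all tested loci, 0 of the 1186 had an adjusted p under 0.05 in edgeR's quasi-likelihood test in any comparison, the lowest being 0.9999, 0.226 and 0.893. DESeq2's Wald test gave 1, 6 and 1 such loci and edgeR's likelihood ratio test 1, 8 and 1. In both comparisons of albumen-deprived hens, all of these but XLOC_002413 would not have passed the CPM minimum without the albumen-deprived hens. The share of all tested loci under these tests was not counted, so that these numbers have no background.

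At an unadjusted P under 0.05 there were 50 loci in albumen-deprived against non-manipulated hens, 4.22% of the 1186 against 3.23% of all tested loci. Of these 26 were higher and 24 lower, where 1.66% and 1.57% of all tested loci were higher and lower. In albumen-deprived against sham-manipulated hens there were 98 loci, 8.26% against 7.13% of all tested loci. Of these 78 were higher and 20 lower, that is 6.58% and 1.69% of the 1186, against 4.11% and 3.02% of all tested loci. The spliced unidentified loci leaned the same way, with 6.78% higher and 1.76% lower. In the sham-manipulated against the non-manipulated group there were 89 loci, 7.50% against 5.28%, of which 21 were higher and 68 lower, that is 1.77% and 5.73%, against 2.30% and 2.98%. Here too the spliced unidentified loci were alike, with 1.88% higher and 6.40% lower. The lean of these counts was thus not particular to single-exon loci. The last 2 comparisons share the sham-manipulated libraries, and no test of the loci against other loci was made. Groups did not overlap in 92, 142 and 125 of the loci in the 3 comparisons, that is 7.76%, 12.0% and 10.5%, close to the 8.15%, 11.9% and 9.98% of all tested loci. Beside the comparison with sham-manipulated hens, 5 of 9 tested heterophil markers were lower in albumen-deprived hens at P under 0.05, with list sums of 21.3 to 34.1 CPM against 27.1 to 94.3 CPM. The non-manipulated hens had 21.7 to 46.0 CPM, and against them 0 of these markers were higher or lower. Of the other marker lists, T and NK had 1 higher and stellate and fibroblast 1 lower against sham-manipulated hens, and the rest 0. The part of heterophils in the counts of loci was not tested.

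The locus with the smallest P in both comparisons of albumen-deprived hens was XLOC_008688, of 3457 bases on chromosome 2 (96423211 to 96426667), between MC2R, the receptor of adrenocorticotropic hormone, and MC5R, another melanocortin receptor. It had 17, 10 and 15 counts in the non-manipulated, 9, 10 and 4 in the sham-manipulated and 80, 36 and 98 in the albumen-deprived hens. Each albumen-deprived hen was above each of the others, at 4.48 ± 2.17 CPM against 0.90 ± 0.317 and 0.442 ± 0.149 CPM (SD, n = 3). The log2-fold change was 2.30 ± 0.46 against non-manipulated hens (edgeR adjusted p 0.9999) and 3.37 ± 0.50 against sham-manipulated hens (edgeR adjusted p 0.226). The cut-off against non-manipulated hens was no longer reached when any of 7 of the 9 libraries was left out, all but sham-manipulated replicate 3 and albumen-deprived replicate 2, with log2-fold changes from 1.96 to 2.66. In that comparison 0 of the single-exon unidentified loci passed without non-manipulated replicate 1 or 2, sham-manipulated replicate 1 or 2 or albumen-deprived replicate 1, while 3 passed without non-manipulated replicate 3 and 2 without albumen-deprived replicate 2. Over all tested loci 4 or 5 passed in the former fits, and 6 and 7 in the last 2, in place of 6. Against sham-manipulated hens XLOC_008688 passed in all 9 such fits.

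XLOC_008688 lay in a row of pieces. Within 10 kb of the span of XLOC_007417, the spliced unidentified locus around it, were 13 unidentified loci between 96409512 and 96449462, of which 11 had a single exon and 2 were spliced. This region was looked at because of XLOC_008688, so that the following is a description. Besides XLOC_008688 the loci past the CPM minimum were XLOC_008687, XLOC_008691 and XLOC_008697, and 7 single-exon pieces were below it. In all 13 the lowest albumen-deprived hen was above the highest hen of both other groups. Of all tested loci, 8.15% did not overlap against non-manipulated and 11.9% against sham-manipulated hens, in either direction. The pieces adjoin in a single region and are not separate observations. XLOC_008691 passed the CPM minimum through the albumen-deprived libraries alone, and XLOC_008687 and XLOC_008688 would not have passed it without them. Some pieces rested on few counts, such as XLOC_008696 with 3, 4 and 10 in the albumen-deprived hens and at most 1 in any other. XLOC_008697, 250 bases before the start of MC5R and on its other side, had 49, 12 and 107 counts in the non-manipulated, 43, 72 and 8 in the sham-manipulated and 136, 237 and 131 in the albumen-deprived hens. The spliced XLOC_007417 had 37, 17 and 46, then 18, 30 and 12, then 188, 85 and 173 counts, with a log2-fold change of 3.07 ± 0.46 against sham-manipulated hens (edgeR adjusted p 0.226).

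The genes on either side did not share this pattern. MC5R was at 184, 198 and 186 CPM in the non-manipulated, 165, 155 and 227 in the sham-manipulated and 86.7, 118 and 173 in the albumen-deprived hens, that is below each non-manipulated hen but overlapping the sham-manipulated ones, with a log2-fold change of -0.63 ± 0.23 against non-manipulated hens (edgeR adjusted p 0.9999). MC2R had at most 2 counts in any library. Over the 9 hens the rho of XLOC_008688 with MC5R was -0.42. The 2 spliced loci of the region were on the plus strand and MC5R on the minus strand, and the 11 single-exon pieces had no strand.

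**Figure D4:**
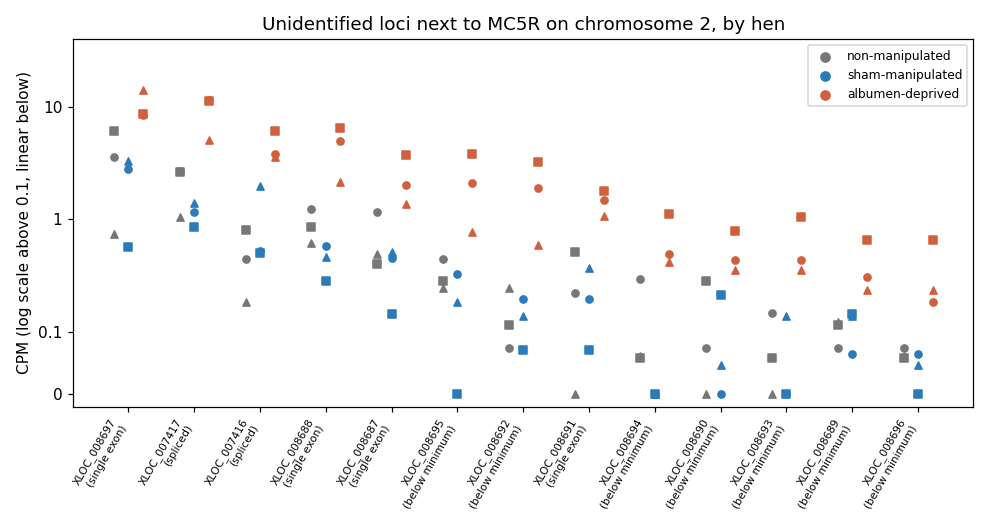
CPM of the 13 unidentified loci within 10 kb of the span of XLOC_007417 on chromosome 2 in each hen (log scale above 0.1 CPM, linear below), ordered by mean level, with colour for the group and a circle, triangle or square for replicate 1, 2 or 3. In each locus the 3 albumen-deprived hens lie above all non-manipulated and sham-manipulated hens. The region was chosen because of XLOC_008688, and the adjoining loci are not separate observations.

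The other 3 loci past the cut-off against sham-manipulated hens were low in the sham-manipulated and intermediate in the non-manipulated hens. XLOC_002413, of 2632 bases on chromosome 1 (20131572 to 20134203), had 3.50, 2.26 and 1.19 CPM in the non-manipulated, 0.774, 0.690 and 0.497 in the sham-manipulated and 3.75, 3.77 and 4.77 in the albumen-deprived hens, with no overlap between any groups. Its log2-fold change was 2.68 ± 0.41 against sham-manipulated hens (edgeR adjusted p 0.226) and, in the sham-manipulated against the non-manipulated group, -1.88 ± 0.41 (adjusted p 0.906). It lay 1007 bases before the start of ENSGALG00000008635, a locus with 4 exons, whose 1.09, 0.731 and 0.796, then 0.516, 0.230 and 0.142, then 2.03, 2.12 and 1.57 CPM followed the same order (rho 0.93), with log2-fold changes of 2.73 ± 0.42 and -1.63 ± 0.44.

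XLOC_018977, of 735 bases on a scaffold without an identified locus, had 8, 6 and 24 counts in the non-manipulated, 1, 3 and 1 in the sham-manipulated and 15, 17 and 40 in the albumen-deprived hens. All sham-manipulated libraries were at or under a floor of 3 counts per library, against which the albumen-deprived mean of 1.51 CPM was at least 8.33-fold higher (edgeR adjusted p 0.418). XLOC_016413, of 1085 bases inside GPAM, the acyltransferase that starts glycerolipid synthesis, had 17, 14 and 11, then 6, 5 and 2, then 14, 20 and 34 counts, and its log2-fold change was 2.50 ± 0.52 against sham-manipulated hens (edgeR adjusted p 0.475). GPAM itself, at 409, 325 and 558, then 525, 217 and 452, then 368, 424 and 614 CPM, overlapped between all groups, and XLOC_016413 was at 1.43% of its level per kilobase. In both loci the non-manipulated hens overlapped the albumen-deprived ones, and neither locus would have passed the CPM minimum without the albumen-deprived hens. The number past the cut-off in this comparison was 2 when sham-manipulated replicate 1 or 2 or the third albumen-deprived hen was left out, and 6 without albumen-deprived replicate 1. Over all tested loci 10, 24 and 12 passed in the former fits and 14 in the latter, in place of 13. XLOC_002413 passed in all 9 such fits, XLOC_018977 failed in 4, those without a sham-manipulated hen or without the third albumen-deprived one, and XLOC_016413 failed in 8, all but that without albumen-deprived replicate 1, with log2-fold changes from 2.02 to 2.82.

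Against non-manipulated hens the next loci by P without overlap of the groups were on scaffolds without an identified locus and did not reach the cut-off. XLOC_018915, of 1429 bases, had 3.72, 4.02 and 5.46 CPM in the non-manipulated, 5.10, 5.61 and 5.68 in the sham-manipulated and 7.62, 8.66 and 7.64 in the albumen-deprived hens, a log2-fold change of 0.83 ± 0.18 (edgeR adjusted p 0.9999). XLOC_019966, of 407 bases and 64.6% GC, had 2.48, 2.01 and 2.84, then 2.71, 2.07 and 2.27, then 1.11, 1.35 and 1.44 CPM, a log2-fold change of -0.94 ± 0.23. With full quantile normalization within bins of GC content the latter was -1.65, with an adjusted p of 0.0285.

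In sham-manipulated against non-manipulated hens the locus past the cut-off was XLOC_020834, which lay on a scaffold next to XLOC_020835 and 4625 bases before the start of CD69, a lectin of activated lymphocytes. XLOC_020834 had 338, 347 and 220 counts in the non-manipulated, 170, 149 and 129 in the sham-manipulated and 158, 187 and 171 in the albumen-deprived hens, a log2-fold change of -1.23 ± 0.25 (edgeR adjusted p 0.893). XLOC_020835 had 3.64, 8.41 and 1.82, then 1.16, 0.874 and 1.14, then 1.72, 1.47 and 1.11 CPM, a log2-fold change of -2.26 ± 0.54 (adjusted p 0.906). In both, each non-manipulated hen was above each hen of the manipulated groups. CD69 was at 4.96, 5.36 and 7.90, then 8.78, 7.59 and 7.96, then 5.10, 6.54 and 9.14 CPM, and its rho over the hens was -0.48 with XLOC_020834 and -0.78 with XLOC_020835. XLOC_020834 no longer reached the cut-off when any of 8 of the 9 libraries was left out, all but non-manipulated replicate 3, with log2-fold changes from -1.49 to -1.05. In this comparison 0 of the single-exon unidentified loci passed when the third sham-manipulated or albumen-deprived replicate 1 or 3 was left out, 2 without non-manipulated or sham-manipulated replicate 1, and 4 without non-manipulated replicate 3. Over all tested loci 11, 4 and 7, then 4 and 7, then 7 passed in these fits in the same order, in place of 8.

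A locus that only DESeq2 called, named after its values were seen, was on or off between hens of a group. XLOC_021510, of 10610 bases on the minus strand of chromosome Z and 38741 bases from PRLR, the prolactin receptor, had 7, 361 and 6 counts in the non-manipulated, 8, 3 and 3 in the sham-manipulated and 527, 11 and 927 in the albumen-deprived hens. A single non-manipulated and 2 of the albumen-deprived hens were high. Only these hens were above 1 CPM, so that the locus would not have passed the CPM minimum without the albumen-deprived hens. Relative to the sham-manipulated group it had a log2-fold change of 6.86 ± 2.07, with an edgeR adjusted p of 0.575.

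Across all 1186 loci the median log2-fold change was 0.05 in albumen-deprived against non-manipulated hens, 0.12 against sham-manipulated hens and -0.07 in the sham-manipulated against the non-manipulated group, where all tested loci had 0.01, -0.01 and 0.01. Spliced unidentified loci had medians of -0.003, 0.005 and -0.015, so that the shift of the median was not seen in them. In the single-exon loci the size went with position. Against sham-manipulated hens it was 0.34 for loci inside a span, 0.11 within 1 kb, 0.12 at 1 to 5 kb, 0.28 at 5 to 50 kb and 0.47 beyond 50 kb, but -0.02 for loci on sequences without an identified locus. In sham-manipulated against non-manipulated hens the same classes had -0.35, -0.06, -0.03, -0.20, -0.32 and 0.00. Within 5 kb, loci before the start of a gene had a median of 0.25 against sham-manipulated hens and those after the end -0.03. By composition, loci of up to 45% GC had a median of 0.23, where all tested loci of that GC content had 0.02, and loci above 55% GC had -0.03, where all tested had -0.08. With full quantile normalization within bins of GC content, the position classes had 0.25, 0.03, 0.05, 0.21, 0.37 and 0.01 against sham-manipulated hens. In sham-manipulated against non-manipulated hens they had -0.21, -0.03, 0.00, -0.13, -0.20 and -0.01. At P under 0.05 in edgeR's test, 69 loci were then higher and 26 lower against sham-manipulated hens, in place of 78 and 20. How many of all tested loci were higher and lower under that normalization was not counted, so that these numbers have no background.

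Single hens carried part of this shift, and more of it in some position classes than in others. Relative to the mean of a locus over the 9 hens, the 92 loci beyond 50 kb had a median log2 level of 0.57, -0.38 and 0.17 in the non-manipulated, -0.17, -0.22 and -0.13 in the sham-manipulated and 0.09, 0.59 and 0.26 in the albumen-deprived hens. Non-manipulated replicate 1 and albumen-deprived replicate 2 were the highest, and non-manipulated replicate 2 the lowest. The loci inside a span gave 0.38, -0.21 and 0.18, then -0.12, -0.18 and -0.22, then -0.05, 0.31 and 0.17. In both classes the sham-manipulated hens were close together and low, and beyond 50 kb the non-manipulated hens lay on both sides of them. On sequences without an identified locus every hen was between -0.08 and 0.08, and identified loci were between -0.01 and 0.02.

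**Figure D5:**
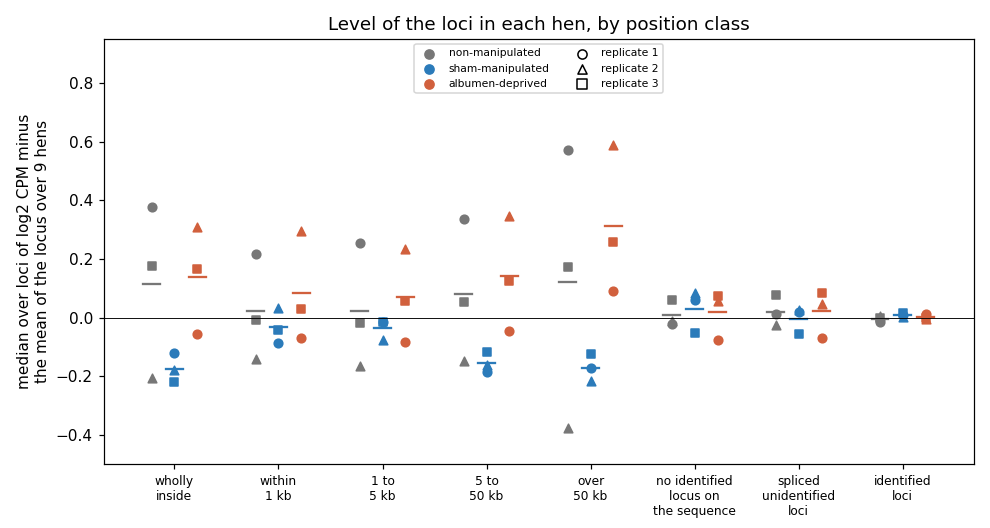
Median over the loci of a class of log2 CPM minus the mean of the locus over 9 hens, for each hen, with colour for the group, marker for the replicate and a line at the group mean. Beyond 50 kb from an identified locus the hens range from -0.38 to 0.59, with non-manipulated replicate 1 and albumen-deprived replicate 2 highest, whereas loci on sequences without an identified locus and identified loci stay near 0.

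Without albumen-deprived replicate 2 the median of all 1186 loci against sham-manipulated hens was 0.03 in place of 0.12, with 58 loci higher and 27 lower at P under 0.05, and that of the loci beyond 50 kb was 0.27 in place of 0.47. Loci inside a span kept 0.28 in place of 0.34, and those at 5 to 50 kb had 0.17 in place of 0.28. Within 1 kb the median was 0.01 in place of 0.11, and at 1 to 5 kb -0.0013 in place of 0.12. Without albumen-deprived replicate 1 there were 96 higher and 8 lower. Against non-manipulated hens the median turned to -0.04 without albumen-deprived replicate 2 and to -0.02 without non-manipulated replicate 2, and the split of 26 higher and 24 lower became 13 and 37, and 17 and 31. Without non-manipulated replicate 1 it became 43 and 15, and without albumen-deprived replicate 1 there were 32 higher and 15 lower. In the sham-manipulated against the non-manipulated group the median without non-manipulated replicate 1 was -0.0024 in place of -0.07, with 17 higher and 35 lower, and the loci beyond 50 kb were at -0.04 in place of -0.32. How many of all tested loci were higher and lower in these fits was not counted.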

How the data were processed

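Liver RNA of 9 hens was sequenced in single-end libraries without strand. The authors mapped reads to Galgal4 with TopHat2 2.0.8b, removed non-primary and low-quality alignments, merged Cufflinks 2.1.1 models with the reference annotation and deposited counts per locus from HTSeq 0.5.4p3, without reads that fell on several loci. The deposited table gives GC content in percent and length in bases. The FPKM table and the authors' table of fold changes and P-values were not used. Loci above 1 CPM in 3 or more libraries were fitted together with edgeR 4.0.16 in R 4.3.3 (TMM scaling, a coefficient per group, quasi-likelihood F-test, Benjamini-Hochberg adjustment over 12324 loci), and the script was tested on simulated data with 200 changed loci. Standard errors are the log2-fold change over the square root of F. Distances run between the locus edges of the deposited table. CPM per kb divides by the deposited length. Spearman correlations over hens and hen levels use log2 CPM with a prior count of 2. No pair of libraries of the same group was a duplicate (chi-square per degree of freedom of at least 21.6), and pairs between groups were not checked. Named loci are the 10 highest by CPM, those of smallest P per comparison, the extremes of length and GC content, the highest of each position class, those at the CPM minimum and their neighbours. Members and lists were chosen with earlier results of these data known.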

Additional observations from a re-analysis of the deposited data

How the results depend on the processing

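With a minimum of 0.5 CPM there were 2238 loci with a median length of 648.5 bases, and with 2 CPM 648 loci of 1308.5 bases; near, taken as 1 kb or 10 kb, covered 18.5% or 49.2% of the loci. Outside the 10 loci with the most counts the loci held 1.15%, 1.13% and 1.26% of the counts in the non-manipulated, the sham-manipulated and the albumen-deprived group. The number past the cut-off, 1, 4 and 1 in albumen-deprived against non-manipulated, albumen-deprived against sham-manipulated and sham-manipulated against non-manipulated hens, was 4, 20 and 15 with the likelihood ratio test and 3, 14 and 10 with DESeq2's Wald test. Over all 12324 tested loci it was 6, 13 and 8 in the main fit. With the likelihood ratio test 16, 53 and 33 of all tested loci passed, and with DESeq2's Wald test 16, 45 and 28. Among the single-exon unidentified loci the number was 2, 4 and 0 with quantile normalization within GC bins, 0 in the first comparison with the 2 groups alone or a term for the last 3 library codes, and 2 in the last without a filter. Over all loci fitted, the number was 5, 11 and 6 with quantile normalization within GC bins. In the first comparison it was 6 with the 2 groups alone and 2 with the term, and in the last 10 without a filter. Equal replicate numbers did not pair the hens (correlations of -0.16 to 0.24). A replicate block gave 0, 5 and 3 of the single-exon unidentified loci, and with quantile normalization 1, 5 and 2. Over all tested loci it gave 4, 17 and 6, and with quantile normalization 7, 15 and 4. Leaving out each library gave 0 to 3, 2 to 6 and 0 to 4, between 1108 and 1163 loci, median lengths of 967 to 987.5 bases, GC contents of 47.7% to 48.2%, 40.3% to 41.5% within 5 kb, and shares of counts of 0.682% to 0.752%, 0.714% to 0.747% and 0.711% to 0.851%. In the same fits 4 to 10, 10 to 24 and 4 to 13 of all tested loci passed the cut-off. The median log2-fold change against non-manipulated hens ranged from -0.041 without albumen-deprived replicate 2 to 0.13, with -0.021 without non-manipulated replicate 2, and that of XLOC_002611 against sham-manipulated hens from -0.0087 without albumen-deprived replicate 2 to 0.80. The correlation with the neighbour's log2-fold change ranged from 0.23 to 0.44, 0.30 to 0.44 and 0.25 to 0.39 when libraries were left out, a choice added after the data were seen, and was 0.41 and 0.24 for loci overlapping or within 1 kb in the first 2 comparisons and 0.44 and 0.41 beyond 50 kb in the last 2. The causes were not tested. With 3 hens a group, an exact test of a single value cannot go below P = 0.1, and at 1 CPM a locus rests on 13.7 to 21.7 counts, which limits the fold changes of most of the loci.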
